A study of Cicer arietinum with 24 samples.

Results

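A total of 153 chickpea (Cicer arietinum) genes kept a steady and high transcript level over the early seed stages S1, S2 and S3 and were low in leaf and at S5, S6 and S7. They are called plateau members hereafter and were selected on the measured values themselves. The transcript level was given in FPKM, which relates the fragments counted for a gene to the length of its exons and to the size of the library. A member had at least 10 FPKM at each of S1, S2 and S3, with a range under 1 over these stages in log2(FPKM + 1). Its score, the lowest of S1 to S3 minus the highest of leaf, S5, S6 and S7 on the same scale, was at least 1.5. The members were 153 of 25111 genes with an identifier of their own (0.609%), and 2.34% of 6529 genes that met the conditions on S1 to S3 whatever their score, called plateau genes below. The rule also left out 4 genes for DNA methyltransferases by identifier, of which 0 met its other conditions.

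The samples came from field-grown plants of the large-seeded cultivar JGK 3, with no treatment. Leaf had been collected at the time of mid-maturation of the seed, and whole seeds at 7 stages. The study called S1, S2 and S3 early-, mid- and late-embryogenesis, S5 mid-maturation and S7 late-maturation, and S4 and S6 lie between these by number. Each of the 8 groups had 3 samples, each a pool of many seeds in the case of seeds, but was deposited as 1 value per gene.

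During embryogenesis of a legume seed the embryo forms its organs and its cells divide, while the endosperm around it is used up. In maturation the cells of the cotyledons enlarge and fill with storage protein and starch, and at the end the seed dries. Whole seeds contain seed coat and embryo, and at the early stages also endosperm, which per the study is fully resorbed in chickpea before S5. A lower value can thus stand for fewer or no cells of a type or for less RNA per cell, which cannot be told apart in these data. The identifiers carry no gene names in the files, and 0 of 25111 were found in the name table used. The roles given below are therefore those the study gave to single genes or to gene lists, apart from a reading of the name minichromosomes, marked where it is used.

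With 1 value per group no spread between samples could be computed. All differences below describe the pooled values, without a replicate check and without a p-value, and the number of reads behind them is unknown. A value of exactly 0 may be an estimate that failed and is given as listed at 0. The choice of the members used leaf and all seed stages except S4. What is said about these groups restates how the members were chosen, in finer detail, and only S4 was outside the choice, although it adjoins S5.

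The median FPKM of the members was 45.8 at S1, 37.9 at S2 and 37.3 at S3. It was 19.1 at S4, 4.67 at S5, 0.328 at S6 and 0.224 at S7. In leaf it was 1.67. The range between members was wide at every early stage, from 10.4 to 1598 FPKM at S1, and 34 members had at least 100 FPKM at S1, S2 and S3 alike. Together the members held 1.76% of the summed FPKM of all entries with an identifier, repeated and joined entries included, at S1. This share was 1.89% at S2, 1.63% at S3 and 0.71% at S4. Their share was 0.139% at S5, 0.0182% at S6 and 0.0116% at S7. In leaf it was 0.0549%. The sum over all these entries was itself larger at S6 (2281180) and S7 (2379440) than at S1 (940628), which lowers the late shares. The members alone summed to 16575.6 FPKM at S1, 414.9 at S6 and 276.7 at S7.

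**Figure D1:**
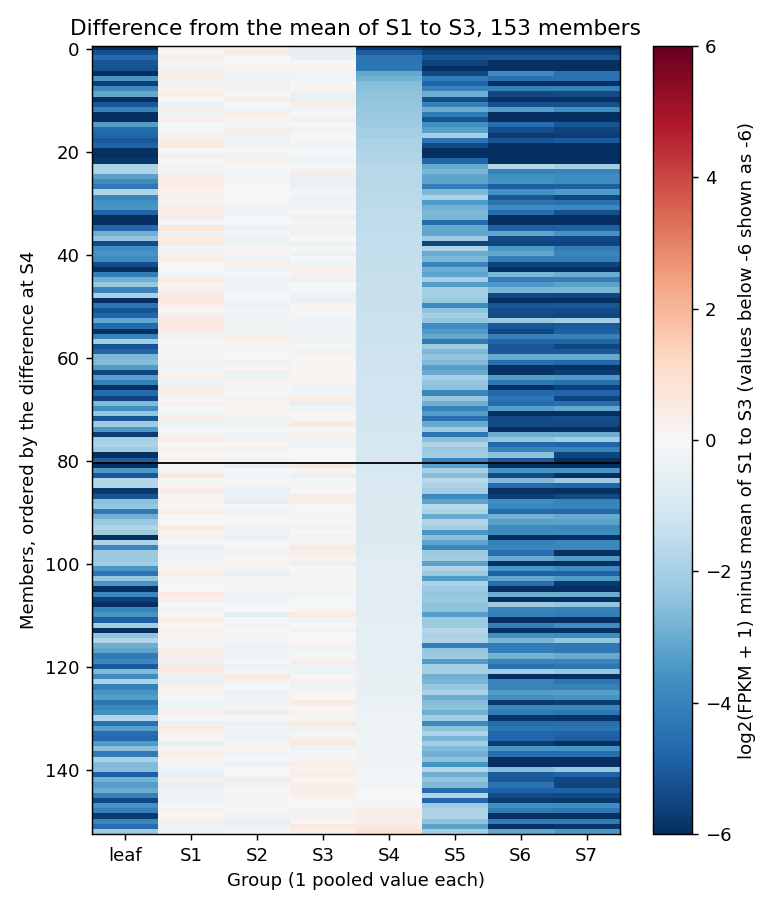
Each line is 1 of the 153 members and each column 1 group, with the colour giving log2(FPKM + 1) minus the mean of S1 to S3 of that member. Members are ordered by S4, and the 81 above the black line were at least 2-fold lower there, while the columns for leaf, S5, S6 and S7 are blue because the members were chosen so.

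S4 was the stage the choice did not use. At S4, 81 of the 153 members (52.9%) were at least 2-fold lower than their mean over S1 to S3, against 8.72% of 15141 genes with at least 1 FPKM at S4 or over S1 to S3, and 6.19% of all plateau genes. In the other direction, 0 members were at least 2-fold higher, against 8.83% of all genes tested. The median difference of the members was -1.07 (log2), with a middle 50% of members from -1.46 to -0.57. It was -0.09 for all plateau genes and -0.04 for all genes tested. Of the members, 146 lay below their mean over S1 to S3 at S4, as did 3699 of the 6529 plateau genes. For 132 members S4 was below the lowest of their own S1, S2 and S3 values, and 18 members were at least 4-fold below the mean. The counts of 132 and 18 were not made over other genes. When the groups were rescaled to the same sum, the same upper quartile or by the median ratio, 85, 77 and 82 of the same 153 members were at least 2-fold lower. The same rescalings gave 8.53%, 5.28% and 6.43% for the same 6529 plateau genes. S4 lies next to S5, at which members had to be low, so these shares are no independent property of the members.

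Plateau genes that missed the choice on a single group showed how S4 went with each condition. Of 69 plateau genes kept out by their leaf value alone, 28 (40.6%) were at least 2-fold lower at S4, with a median of -0.92. Of 323 kept out by S5 alone, 37 (11.5%) were lower and 20 were at least 2-fold higher, with a median of -0.28. The 323 include Ca_20580, which the rule also left out by identifier. The genes kept out by leaf were low at S5 by the choice, and those kept out by S5 were not. S6 alone kept out 5 plateau genes and S7 alone kept out 1.

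**Figure D2:**
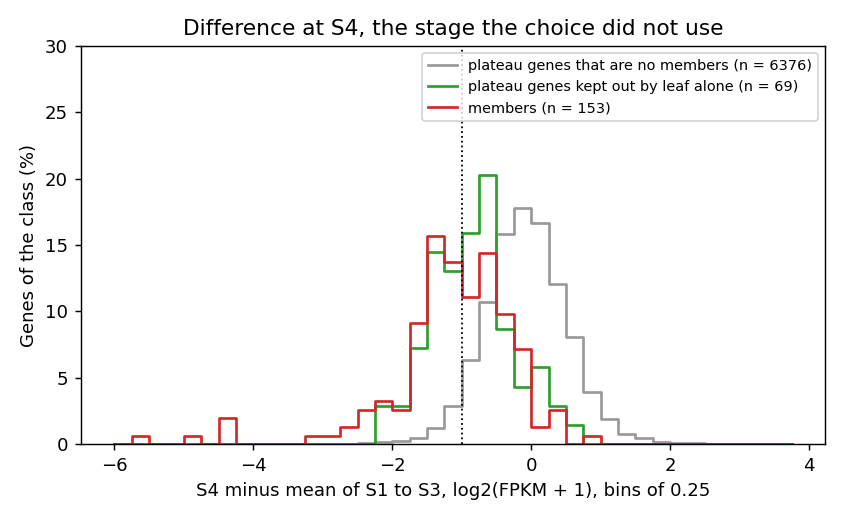
The lines give the share of genes (%) in bins of 0.25 of the difference between S4 and the mean of S1 to S3 in log2(FPKM + 1), for the members, the plateau genes kept out by leaf alone and all 6376 plateau genes that are no members. The members and the genes kept out by leaf lie mostly left of 0, with medians of -1.07 and -0.92, and the dotted line marks a 2-fold lower value.

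The 4 members lowest at S4 relative to the plateau were Ca_22118, Ca_19070, Ca_22850 and Ca_26260. Ca_22118 had 110.1 FPKM at S1, 122.1 at S2 and 68.8 at S3, then 0.840 at S4, and was listed at 0 at S5, S6 and S7. Ca_19070 had 43.9, 65.7 and 32.8 FPKM over S1 to S3 and 0.484 at S4, and Ca_22850 had 42.8, 32.7 and 24.7 FPKM and 0.577 at S4. Both were also listed at 0 from S5 on. Ca_28251, with 73.2, 95.2 and 99.98 FPKM over S1 to S3 and 3.39 at S4, was the remaining member listed at 0 at all of S5, S6 and S7. The members listed at 0 throughout S5 to S7 were thus 4, all at least 4-fold lower at S4 and all on identifiers that the files list more than once.

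Ca_26260, by contrast, was on an identifier listed once and was above 0 at every stage. It had 331 FPKM at S1, 305 at S2 and 306 at S3, and 14.3 at S4, a difference of -4.36 (log2) from the plateau. It was at 5.96 FPKM at S5, 0.199 at S6 and 0.0340 at S7, with 8.07 in leaf, and its difference from the plateau was -5.50 at S5.

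At the other end, 7 members were at or above their plateau mean at S4, and 5 of them exceeded each of S1, S2 and S3. Ca_08312 was highest relative to its plateau, with 15.0 FPKM at S1, 20.5 at S2, 24.5 at S3 and 36.7 at S4, a difference of 0.87 (log2), before 4.25 at S5. Ca_19283 had 54.1, 48.6 and 91.5 FPKM over S1 to S3, 86.9 at S4 and 5.89 at S5. Ca_12709 had 22.4, 12.1 and 18.9 FPKM over S1 to S3, 23.4 at S4 and 2.27 at S5. Ca_08312 was thus highest at S4, and so was Ca_12709, slightly above its S1 value. Ca_19283 lay slightly below its S3 value at S4, and all 3 were lower from S5 on. Ca_11363, which the study listed under differentiation, had 192, 168 and 231 FPKM over S1 to S3, 253 at S4 and 53.1 at S5.

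The order of S1, S2 and S3 within the plateau was limited by the choice to a range under 1, and its median was 0.56 (log2). Of the members, 79 (51.6%) were highest at S1, 28 (18.3%) at S2 and 46 (30.1%) at S3. Among the 6376 plateau genes that are no members, 39.6% were highest at S1, 29.5% at S2 and 30.9% at S3. S2 was the lowest of the 3 stages for 68 members (44.4%) and for 40% of the other plateau genes. With the groups scaled to the same summed FPKM, 66 of the same 153 members were highest at S1, 55 at S2 and 32 at S3. The order of S2 and S3 among the members thus turned with this scaling. It did not turn with the same upper quartile (21 highest at S2, 56 at S3) or the median ratio (23 and 48). S1 came first under all scalings tried.

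In the values as deposited, the stage of the highest value and the difference at S4 went together among the members. The split was not repeated with other scalings or for other plateau genes. Of the 81 members at least 2-fold lower at S4, 48 (59.3%) were highest at S1 and 14 (17.3%) at S3. Of the 72 others, 31 (43.1%) were highest at S1 and 32 (44.4%) at S3. All of these differences include the S1 to S3 values, so the shares are not independent of each other. The median FPKM at S5 was 4.18 for the members lower at S4 and 6.35 for the others, and in leaf it was 1.38 and 2.39 FPKM.

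The flattest members changed little over S1 to S3. Ca_09325 had 442 FPKM at S1, 446 at S2 and 438 at S3, the smallest range of all members (0.03 in log2). It was at 218 FPKM at S4, 102 at S5, 80.2 at S6 and 8.62 at S7, with 5.87 in leaf. The study listed this gene in a quantitative trait locus (QTL), a region linked to a measured trait. It was also the only member with its largest downward difference between S6 and S7. Ca_14101 had 34.9, 36.5 and 35.7 FPKM over S1 to S3 and 19.7 at S4, and 9.93 at S5, 2.85 at S6, 2.94 at S7 and 6.95 in leaf.

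The size of the score followed from the choice and is given as a description. It ranged from 1.51 to 7.18 with a median of 2.21, and 36 members had a score of at least 3. Ca_00153 combined the highest score with the highest level, with 1598 FPKM at S1, 1655 at S2 and 1530 at S3. It had 431 FPKM at S4, 8.38 at S5, 0.802 at S6 and 9.59 in leaf, and it was listed at 0 at S7. Ca_07687 came next, with 438, 307 and 347 FPKM over S1 to S3, 106 at S4 and 0.923 at S5, and 0.824 at S6, 0.388 at S7 and 1.13 in leaf. Both were within 4-fold of their plateau at S4 and had lost nearly all of it at S5.

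Other members with high scores differed in the stage at which they were low. Ca_02745 had 68.0, 38.3 and 37.2 FPKM over S1 to S3 and 16.1 at S4. It was listed at 0 at S5, before 0.0371 FPKM at S6 and 0.0156 at S7, with 0.139 in leaf. Ca_04872 had 830, 1051 and 596 FPKM over S1 to S3 and passed through 150.01 at S4 and 19.2 at S5 to 0.402 at S6 and 0.290 at S7, with 2.78 in leaf. It was second to Ca_00153 in its mean level over S1 to S3.

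In other abundant members the difference built up over more stages. Ca_01497 had 693, 557 and 844 FPKM over S1 to S3, 265 at S4, 88.5 at S5, 0.664 at S6 and 0.279 at S7, with 2.27 in leaf. Ca_20417 had 563, 461 and 366 FPKM over S1 to S3, 148 at S4, 123 at S5, 12.1 at S6 and 9.36 at S7, with 29.2 in leaf. Both still had more than 10 FPKM at S5, as did 46 of the 153 members. At S6 and S7, 8 and 4 members had at least 10 FPKM. Of the 6376 plateau genes that are no members, 5747 had at least 10 FPKM at S5, 4991 at S6 and 4993 at S7.

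**Figure D3:**
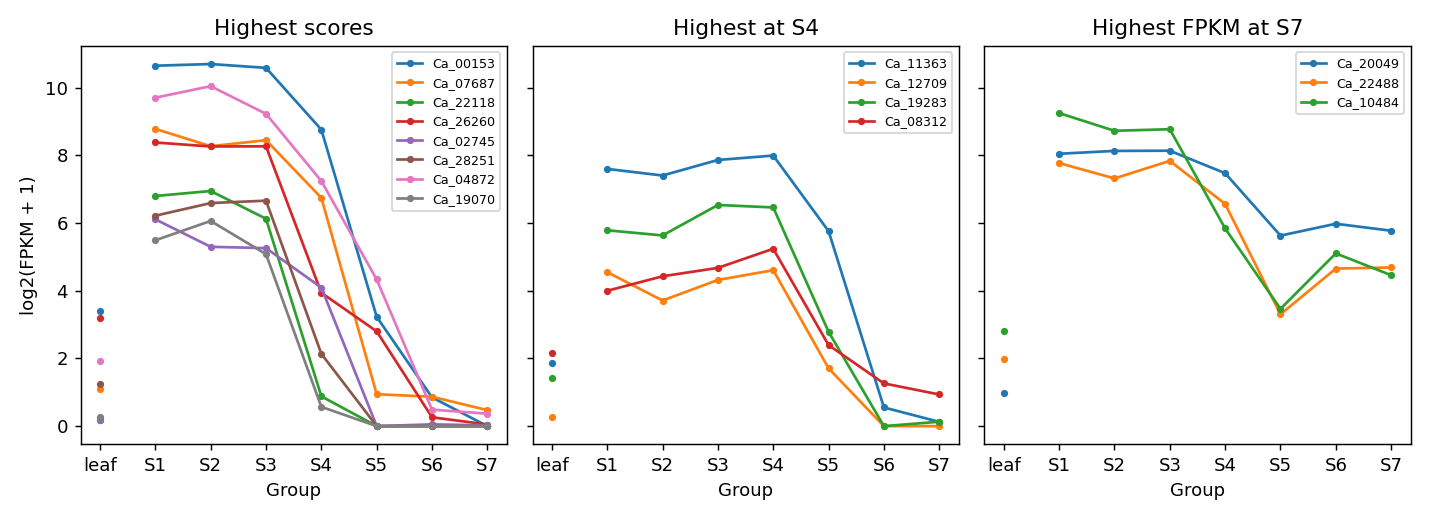
Points give log2(FPKM + 1) in leaf (left, not joined) and at S1 to S7 for the 8 members with the highest scores, the 4 with the highest S4 value relative to the plateau and the 3 with the highest FPKM at S7. The first set is low at S4 or S5, the second is above its plateau mean at S4 and lower at S5, and Ca_22488 and Ca_10484 in the third have higher values at S6 (24.2 and 33.3 FPKM) than at S5 (8.87 and 10.03 FPKM).

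The group that limited the score was S5 for 105 members (68.6%), leaf for 40, S6 for 5 and S7 for 3. Relative to the plateau, the median difference was -2.74 (log2) at S5, -4.58 at S6, -4.85 at S7 and -3.91 in leaf. By the choice all 153 members were at least 2-fold lower in each of these groups, as were 26.2% of all genes tested in leaf, 18.9% at S5, 33.8% at S6 and 34% at S7. Leaf was lower than S5 for 110 members. The members were listed at 0 in 2 cases in leaf, 5 at S5, 19 at S6 and 33 at S7. In all 39 members were listed at 0 in at least 1 group. Of the 6376 plateau genes that are no members, 13 were listed at 0 in leaf, 3 at S5, 13 at S6 and 22 at S7.

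The loss was spread over the steps from S3 to S6. Between S3 and S4, 78 members were at least 2-fold lower at the later stage, against 6.93% of all genes that reached 1 FPKM at S3 or S4. Between S4 and S5, 132 of the 150 members that could be counted were lower, against 10.9% of all genes. Between S5 and S6 this was so for 98 of 129 members and 30.6% of all genes, and between S6 and S7 for 7 of 45 members and 3.69% of all genes. The largest downward difference of a member lay between S3 and S4 for 20 members, between S4 and S5 for 64, between S5 and S6 for 68 and between S6 and S7 for 1. The step from S3 to S4 was larger than that from S4 to S5 for 43 members. S3, S5, S6 and S7 all entered the choice, so these counts say at which step the chosen genes were lost and not that more genes were lost than elsewhere.

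Most members were under 1 FPKM at the last stages, 110 of them at S6 and 114 at S7. In leaf 57 members had less than 1 FPKM, and 16 members were under 1 FPKM in leaf and at all of S5, S6 and S7. Of the 6376 plateau genes that are no members, 276 were under 1 FPKM at S6, 315 at S7 and 110 in leaf. The members were chosen to be low in these groups, and the shares over all genes were not computed. At S6, 11 members were higher than at S5, and at S7 10 members were. For 8 members the highest of leaf, S5, S6 and S7 was S6 or S7.

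Ca_10484 had 606 FPKM at S1, 421 at S2, 435 at S3 and 56.2 at S4, and was at 10.03 at S5, 33.3 at S6 and 20.98 at S7, with 6.07 in leaf. Ca_22488 had 217, 158 and 227 FPKM over S1 to S3, 93.4 at S4 and 8.87 at S5, and was at 24.2 at S6 and 24.7 at S7. Ca_20049 had the highest S7 value of the members, with 263, 279 and 280 FPKM over S1 to S3, 176 at S4, 48.4 at S5, 62.0 at S6 and 53.6 at S7, with 0.986 in leaf. When the groups were scaled to the same sum or to the same upper quartile, 4 of the 8 members still had S6 or S7 above S5, namely Ca_10484, Ca_21844, Ca_22488 and Ca_23205. For Ca_20049 this order was lost under both. With the median ratio, all 8 members kept S6 or S7 above S5.

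Leaf values of the members were mostly low by the choice, and 20 had at least 10 FPKM there, as did 5217 of the 6376 other plateau genes. Ca_12304 was highest in leaf with 47.4 FPKM. It had 177, 171 and 211 FPKM over S1 to S3 and 160 at S4, and 33.5 at S5, 0.363 at S6 and 0.439 at S7. Ca_02685 had 46.8 FPKM in leaf, 236, 238 and 148 over S1 to S3, 125 at S4, 20.9 at S5, 0.956 at S6 and 0.436 at S7. Both were thus higher in leaf than at any stage from S5 on. Ca_18331, listed by the study under grain filling, had 38.1 FPKM in leaf and 39.1 at S5, after 157, 154, 241 and 110 FPKM at S1, S2, S3 and S4.

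The limit on the score cut through a continuous range of values. Just inside it were Ca_06935 (score 1.53), Ca_20774 (1.52) and Ca_13400 (1.51). The plateau genes nearest below were Ca_16417 (1.49), Ca_06625 (1.48) and Ca_14371 (1.45). Ca_13400 had 22.3, 32.7 and 35.4 FPKM over S1 to S3, 21.6 at S4 and 7.14 in leaf. Ca_16417 had 30.7, 24.2 and 22.3 FPKM over S1 to S3, 16.4 at S4 and 7.27 in leaf. Over S1 to S3 their order was opposite, and at S5 they had 3.56 and 6.86 FPKM.

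Of the candidate genes of the study, the 13 that its text names were examined, and further candidates were not analysed here as a list. The auxin response factor Ca_10748 was the only member among these 13. Auxin response factors are transcription factors that bind the promoters of genes responding to the hormone auxin. Ca_10748 had 118 FPKM at S1, 81.9 at S2, 76.2 at S3, 39.1 at S4 and 15.7 at S5, and it had 0.509 at S6, 0.884 at S7 and 0.217 in leaf. Its difference from the plateau was -1.18 (log2) at S4 and -2.45 at S5. S1 was its highest stage, and each later value to S6 was lower than the one before.

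The study placed 4 candidates, CDC6 and those it called minichromosomes, in cell cycle regulation. The latter are read here as minichromosome maintenance genes, by that name only and without an annotation check. Of the 4, 2 missed the choice on their range over S1 to S3 alone. The minichromosome maintenance proteins form the helicase that opens DNA at replication origins, and CDC6 helps to load it. Ca_09549, a minichromosome maintenance gene, had 63.9 FPKM at S1, 24.7 at S2 and 25.5 at S3, and 9.85 at S4, 6.13 at S5, 3.77 at S6, 3.07 at S7 and 1.56 in leaf. Ca_15408, of the same family, had 45.4, 18.2 and 18.4 FPKM over S1 to S3, and 8.50 at S4, 4.52 at S5, 0.781 at S6, 0.549 at S7 and 0.851 in leaf. Both passed the limit on the score (1.85 and 1.80) but had a range of 1.34 and 1.27 over S1 to S3, above the limit. CDC6 (Ca_15618) was also highest at S1 but at a lower level, with 9.54, 3.67 and 3.52 FPKM over S1 to S3 and 1.72 at S5. The remaining minichromosome maintenance gene, Ca_12014, was highest at S5 with 4.74 FPKM.

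**Figure D4:**
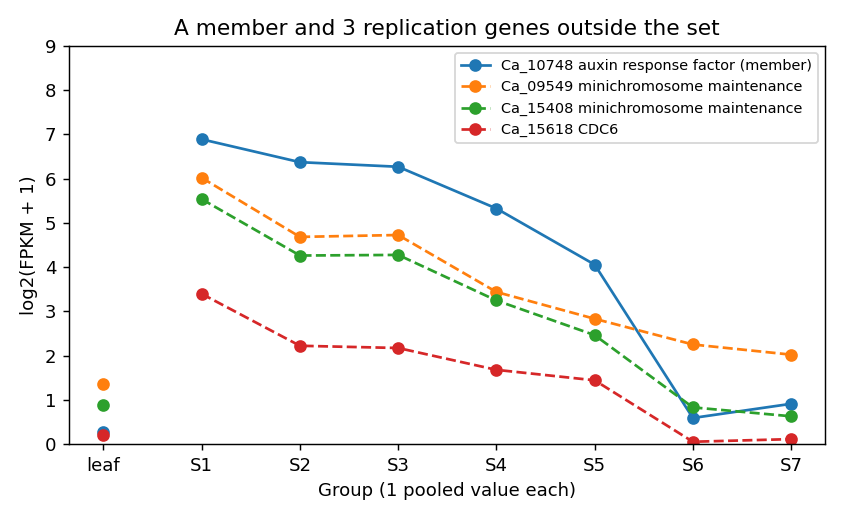
Points give log2(FPKM + 1) in leaf (left, not joined) and at S1 to S7 for the auxin response factor Ca_10748, the only member among the 13 candidate genes examined. The others are 3 genes, read here as genes of DNA replication, that are no members. Ca_09549, Ca_15408 and CDC6 are higher at S1 than at S2 and S3, with a range over these stages of 1.34, 1.27 and 1.22, whereas the range of Ca_10748 is 0.62.

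The gene lists of the study held 28 members (18.3%) in all, against 8.91% of all genes in the table and 11.2% of plateau genes. The process lists rested on annotation terms and the QTL list on earlier mapping studies. The listed genes were in part also those with differential expression or methylation in the same seeds, so their direction is no independent evidence. Members made up 1.4% of 358 cell cycle genes in the table and 5.05% of the 99 that were plateau genes, against 0.609% of all genes and 2.34% of all plateau genes. For cell growth these shares were 2.73% and 8.06% (5 members), for differentiation 1.72% and 5.37% (13 members) and for grain filling 1.73% and 5% (3 members). The QTL list held 11 members (1.17% and 3.29%) and the desiccation list 1 (0.641% and 2.27%). These shares are counts without a test.

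The 5 cell cycle members were Ca_03163, Ca_05591, Ca_07317, Ca_14124 and Ca_19186. Ca_14124 kept its plateau to S4, with 46.1, 60.2 and 59.4 FPKM over S1 to S3 and 55.9 at S4, and had 1.09 at S5, 0.0502 at S6 and 0.257 in leaf. Ca_19186 had 45.7 FPKM at S1, 22.9 at S2, 23.0 at S3, 9.58 at S4 and 2.58 at S5, and was listed at 0 at S6 and S7. Ca_05591 had 35.4, 35.7 and 27.3 FPKM over S1 to S3, 13.1 at S4 and 4.19 at S5. Of these 5 members, 3 were at least 2-fold lower at S4, with a median difference of -1.22 (log2). Over all 153 members, 52.9% were lower and the median was -1.07. All cell cycle plateau genes, which were not chosen to be low at S5, had a median of -0.07.

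Listed genes were also found among those that passed the limits on level and score but not on range. Ca_23587, which the rule also left out by identifier, is counted among them. Of 109 genes that had at least 10 FPKM at S1 to S3 and a score of at least 1.5 but a range of 1 or more, 10 (9.17%) were on the cell cycle list, against 1.43% of all genes and 1.52% of plateau genes, and all 10 were highest at S1. The QTL list held 14 of the 109 (12.8%, against 3.74% and 5.12%) and the differentiation list 7 (6.42%, against 3.01% and 3.71%). Of the 109 genes, 80 (73.4%) were highest at S1. At S4, 86 of them (78.9%) were at least 2-fold below their mean over S1 to S3, with a median of -1.80. A mean raised by S1 alone enters this difference.

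The members listed under cell growth and differentiation overlapped. Ca_08516, on both lists, had a plateau of 132, 144 and 157 FPKM over S1 to S3, 50.3 at S4, 4.96 at S5, 0.168 at S6 and 0.205 at S7, with 0.957 in leaf. Ca_07317, on these and the cell cycle list, had 232, 161 and 230 FPKM over S1 to S3, 87.3 at S4, 24.5 at S5, 2.35 at S6 and 2.97 at S7, with 3.62 in leaf. Both were more than 2-fold below the plateau at S4 (-1.50 and -1.22). Ca_08691 had 142, 122 and 197 FPKM over S1 to S3, 66.7 at S4, 29.98 at S5 and 6.63 at S6. Ca_11366 was lower, with 22.3, 12.9 and 24.97 FPKM over S1 to S3, 10.2 at S4 and 1.27 at S5.

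Of the 13 differentiation members, 5 were at least 2-fold lower at S4, with a median of -0.85. Over all 153 members, 52.9% were lower and the median was -1.07. All plateau genes on that list, which were not chosen to be low at S5, had a median of -0.18. Ca_09097 had 14.9, 13.1 and 16.1 FPKM over S1 to S3, 10.9 at S4 and 0.979 at S5. Ca_23205 had 46.9, 48.8 and 37.3 FPKM over S1 to S3, 19.3 at S4 and 1.71 at S5, and was at 3.50 at S6 and 4.40 at S7. The only desiccation member, Ca_10207, was also listed under differentiation. It had 48.5, 50.5 and 85.0 FPKM over S1 to S3, 46.0 at S4, 8.81 at S5 and 0.106 at S6. That it was low at the stages at which seeds dry followed from the choice.

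Among the members listed under grain filling, Ca_07934 had 45.8, 29.2 and 27.3 FPKM over S1 to S3 and 12.9 at S4, and was at 5.85 at S5, 6.33 at S6 and 7.24 at S7. Ca_05529 had 66.8, 43.1 and 36.2 FPKM over S1 to S3, 17.9 at S4 and 10.4 at S5, and 11.4 in leaf. None of the 3 grain filling members was highest after S3, since the choice did not allow it at S5 to S7. Of the 11 QTL members, 8 were at least 2-fold lower at S4, against 52.9% of all members and 8.72% of all genes tested. Their median difference was -1.14 (log2), against -1.07 for all members. It was -0.06 for all plateau genes on the QTL list, which were not chosen to be low at S5. Ca_11124 had 141, 84.7 and 72.0 FPKM over S1 to S3, 50.2 at S4 and 14.7 at S5. Ca_17284 had 18.8, 24.1 and 22.5 FPKM over S1 to S3, 8.94 at S4 and 3.57 at S5. Ca_09297 differed from both, with 28.7, 19.2 and 20.4 FPKM over S1 to S3 and 19.1 at S4, before 2.19 at S5.

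An identifier could occur on several entries of a table, and the entry with the highest mean had been used. This concerned 10 members. Of their 10 further entries, 2 met the same conditions, namely those of Ca_07687 (36.2, 29.3 and 31.9 FPKM over S1 to S3, listed at 0 at S5) and Ca_22428 (53.0, 59.1 and 45.4 FPKM, 4.19 at S5). Another 4 were under 1 FPKM at S1, S2 and S3, of which 2 were listed at 0 in every group. The further entry of Ca_19070 was highest at S6 with 71.4 FPKM, and that of Ca_22850 was highest in leaf with 13.6 FPKM. For these identifiers the pattern belongs to 1 of 2 entries, and how the authors divided reads between them is not given in the sources used here.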

How the data were processed

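RNA-seq was carried out on leaf and 7 seed stages of JGK 3, 3 samples per group (24 samples), grouped by their titles. Per the labels and the study's methods, the authors ran NGS QC Toolkit on the reads and TopHat against the kabuli chickpea genome. They deposited FPKM values made with Cufflinks, as 1 column for each group. The authors' tests with Cuffdiff were not used. How samples were pooled is not stated, and depth is unknown. Of 35234 entries per table, 26305 with a single identifier gave 25111 genes, using the entry with the highest mean. The 1661 joined entries and 7268 entries with no identifier stayed out.

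Values were compared as log2(FPKM + 1), which understates differences of low values, with a limit of 2-fold among genes with at least 1 FPKM. The members and lists were chosen with earlier results of these data known. The genes named were those with the highest score, mean, leaf or S7 value, the largest and smallest S4 differences, the smallest range, those next to the score limit, up to 4 members per study list and named candidates. Ca_21844, Ca_22428, Ca_03163, the genes of DNA replication and the entries with no or several identifiers were named after their values were seen. The alternatives were other limits, pseudocounts (0.1 and 5), scalings (same sum, same upper quartile, median ratio), entries and lists. Calculations were tested on simulated data and used Python 3.11.15, pandas 2.3.3 and numpy 2.4.6.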

Additional observations from a re-analysis of the deposited data

Results flagged for a closer look

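Entries without a gene identifier were left out of the comparisons. Of these 7268 entries, 14 (0.193%) met the same conditions as the members, above their level in leaf. This share was 0.609% for genes with an identifier of their own. Of the 297 entries that met the conditions on S1 to S3, the 14 were 4.71%, against 2.34% for plateau genes. The 14 entries were flagged as a signal in data that no comparison used. XLOC_026111 was the most abundant, with 1331 FPKM at S1, 797 at S2, 819 at S3, 517 at S4 and 5.26 at S5, against 7.09 in leaf. At S4, 10 of the 14 were at least 2-fold below their mean over S1 to S3, against 52.9% of the members. The share over all entries without an identifier was not computed, and S4 adjoins S5, at which the 14 had to be low. No group had replicate values, so samples could not be screened for outliers.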

How the results depend on the processing

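Each group had 1 pooled value. No paired analysis was possible because the deposited columns carry no replicate, and for the same reason no sample could be left out. Counts up to 1.5 times apart are treated as alike. The number of members (153) was 94 with a score limit of 2, 57 with a range limit of 0.5 and 24 when S4 also had to be low. It reached the top 250 allowed with a score limit of 1 (259 met the conditions), when S5 was not required to be low (475) and with groups scaled to the same sum (337). With the same sum 147 of the 153 members were kept among the 250. Of these 250, 126 (50.4%) were at least 2-fold lower at S4, against 52.9% of the 153, and 77 were highest at S2. A pseudocount of 5 gave 103 members, of which 48 were highest at S1. A 4-fold limit left 18 lower at S4, and 2 cell cycle members remained among genes with a DMR (differentially methylated region) in a transition. The other alternatives left these counts within 1.5 times. With S5 not required to be low, however, 87 of 250 members (34.8%) were at least 2-fold lower at S4, against 81 of 153 (52.9%), with 110 members in common. The alternatives on S4 that changed the entries, values at 0 or low groups were added after seeing the data. The same sum moved the median of all genes, relative to S1 to S3, to -0.14 (log2) at S4, -0.59 at S5, -1.25 at S6, -1.28 at S7 and -0.62 in leaf, and the same upper quartile to between -0.74 (S7) and 0.01 (S4). The deposited values had medians between -0.14 and -0.04. Of 42 named members, 10 were under the score limit with a pseudocount of 5 and 3 with the median ratio.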

Other observations

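Entries that joined several identifiers were also outside the comparisons. Of 1661 such entries, 9 (0.542%) met the conditions for members, against 0.609% of genes with an identifier of their own. Of the 946 such entries that met the conditions on S1 to S3, the 9 were 0.951%, against 2.34% for plateau genes. The entry of Ca_10007 and Ca_10008 had 220.5 FPKM at S1, 285 at S2, 160 at S3, 34.2 at S4 and 2.19 at S5, with 0.659 in leaf. The entry of Ca_16079 and Ca_16081 was higher at S4 (35.0 FPKM) than at S1, S2 and S3 (21.5, 25.9 and 17.3 FPKM) and had 1.99 FPKM at S5. Of the 9 entries, 3 were at least 2-fold lower at S4 than their mean over S1 to S3, against 52.9% of the members. The share over all joined entries was not computed.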
